A study of Mus musculus with 2 samples.

Results

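The genes described here are 36 genes of the cell cycle and of DNA replication, chosen by name from the 17592 gene columns of a single-cell expression table of the mouse dentate gyrus, and all 36 were in the table. They code for the replicative helicase and its clamp, the enzymes that supply nucleotides, histone and chromatin factors of dividing cells, the cyclins and mitotic kinases, centromere and spindle proteins, the anaphase-promoting complex and the chromosome proteins Mki67 and Top2a. The tissue came from C57BL/6 mice, with 1 library labelled young (3 months) and 1 labelled old (16 months). The dentate gyrus was dissected under a microscope and digested with papain, live cells that excluded propidium iodide were sorted, and 3' ends of transcripts were counted with unique molecular identifiers (UMIs) on the 10x Genomics platform with the v3 kit. No transgene, deletion or treatment is named for either library, the number of animals behind each is not given in the sources used here, and the sort selected on viability alone.

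A cell that divides first copies its DNA and then separates the copies. Before S phase the Mcm2 to Mcm7 helicase is loaded on DNA, Pcna holds the polymerase on its template, and Rrm1, Rrm2 and Tyms make the deoxynucleotides. In G2 and mitosis cyclin B with Cdk1, the Aurora and Polo kinases, the kinetochore and the anaphase-promoting complex condense, align and part the chromosomes. In the adult dentate gyrus, stem cells and intermediate progenitors of the subgranular zone divide to make granule neurons, and oligodendrocyte precursors and microglia also renew themselves.

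The promoters of several members are printed here to show the short sequence elements found within the 250 bases before the start of mitosis and replication genes of the set. Sequences are from RefSeq on GRCm38.p6, 5′ to 3′ on the gene's own strand, and 31 of the 36 members were matched (H2afz under its newer symbol H2az1). Capitals mark, on either strand, TTTGAA (the core of the cell cycle genes homology region, CHR), CCAAT (the CCAAT box) and 4 forms of the E2F element (TTTCCCGC, TTTGGCGC, TTTCGCGC and TTTGCCGC). Neighbouring E2F matches can overlap, since TTTGGCGCGAAA holds TTTGGCGC on its own strand and TTTCGCGC on the other. Top2a (chr11:99024190-99024439, minus strand), Mki67 (chr7:135716380-135716629, minus strand) and Ccnb2 (chr9:70421555-70421804, minus strand) are shown for TTTGAA letters with several CCAAT boxes. In Ccnb2 the only TTTGAA lies upstream of all 3 CCAAT boxes.
Top2a: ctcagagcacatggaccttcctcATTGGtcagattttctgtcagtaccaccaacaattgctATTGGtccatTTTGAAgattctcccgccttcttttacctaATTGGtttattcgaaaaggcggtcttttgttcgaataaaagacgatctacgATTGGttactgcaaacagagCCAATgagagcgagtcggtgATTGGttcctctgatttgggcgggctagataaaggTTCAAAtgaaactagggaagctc
Mki67: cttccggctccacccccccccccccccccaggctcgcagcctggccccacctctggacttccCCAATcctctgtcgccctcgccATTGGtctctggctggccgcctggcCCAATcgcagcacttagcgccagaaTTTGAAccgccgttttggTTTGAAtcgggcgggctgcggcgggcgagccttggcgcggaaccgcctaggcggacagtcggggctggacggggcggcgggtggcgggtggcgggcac
Ccnb2: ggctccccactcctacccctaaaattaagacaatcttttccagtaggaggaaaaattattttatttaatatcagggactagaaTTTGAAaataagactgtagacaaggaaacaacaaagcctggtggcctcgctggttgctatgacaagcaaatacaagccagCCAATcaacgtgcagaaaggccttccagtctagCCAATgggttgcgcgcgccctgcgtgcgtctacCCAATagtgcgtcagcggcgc
Cks2 (chr13:51644982-51645231, plus strand) is shown as a mitosis member with CCAAT boxes and no TTTGAA in this window. Mcm5 (chr8:75109259-75109508, plus strand) and Mcm6 (chr1:128359706-128359955, minus strand) are shown as helicase genes with E2F letters.
Cks2: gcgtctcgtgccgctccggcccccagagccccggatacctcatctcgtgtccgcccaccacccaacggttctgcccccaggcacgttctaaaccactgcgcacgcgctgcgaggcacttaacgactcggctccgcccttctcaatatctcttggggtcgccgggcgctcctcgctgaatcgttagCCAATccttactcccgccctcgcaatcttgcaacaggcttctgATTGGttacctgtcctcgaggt
Mcm5: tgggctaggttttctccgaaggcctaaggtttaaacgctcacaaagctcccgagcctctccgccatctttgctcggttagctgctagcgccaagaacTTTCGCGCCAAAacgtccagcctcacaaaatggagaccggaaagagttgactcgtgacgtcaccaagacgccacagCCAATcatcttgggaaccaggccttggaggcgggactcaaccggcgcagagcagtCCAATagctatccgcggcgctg
Mcm6: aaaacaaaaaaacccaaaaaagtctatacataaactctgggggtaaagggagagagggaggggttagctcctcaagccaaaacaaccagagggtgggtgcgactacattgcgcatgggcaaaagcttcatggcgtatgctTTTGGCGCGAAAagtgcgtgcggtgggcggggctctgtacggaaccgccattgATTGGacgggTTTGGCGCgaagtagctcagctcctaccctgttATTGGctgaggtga

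The counts of these letters are given by group, and no difference between groups was tested. Among members with a promoter in the table, TTTGAA was found in 8 of 18 mitosis genes (Cdk1, Ccnb2, Cdkn3, Kif11, Cdc20, Ube2c, Mki67 and Top2a) and in 1 of 9 replication genes (Mcm2), against 18.3% of 27025 genes. An E2F form was found in 3 of 9 replication genes (Mcm5, Mcm6 and Mcm7) and in 1 of 18 mitosis genes (Cdk1), against 2.16% of all genes. CCAAT was found in 16 of 18 mitosis genes and 8 of 9 replication genes, against 37.5% of all genes. The other 4 members with a promoter in the table were H2afz, Nasp, Hmgb2 and Cks1b, of which 3 held TTTGAA (Nasp, Hmgb2 and Cks1b), all 4 held CCAAT and 0 held an E2F form. The windows of all genes numbered 32851, of which 16.0%, 1.86% and 33.8% held the CHR, E2F and CCAAT letters. A match is a description of letters and not of a bound site, and an absent match says only that these letters are not in this window.

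The young library held 2463 cells (median 6663 UMIs per cell) and the old library 1430 (median 3856). Of the old library's barcodes, 1401 (98.0%) were also in the young library, where they made up 56.9%, so the old values mostly describe the same cells again and are given here beside the young ones with no comparison of ages. Each age was 1 library and the libraries share cells, so there is no replicate check and no p-value. Intervals are exact 95% intervals and cover counting error only. Cells whose mitochondrial share was under 1% are treated apart, which left 1120 young brain cells and 1343 low-mitochondrial cells. Classes were named from 210 markers, with the members and their pathway genes left out of the clustering, and 7 classes held at least 20 young cells. The neuroblast-like class (49 cells) had all 12 markers of neuroblasts or immature granule neurons, among them Dcx and Sox11, each in at least 25% of its cells. No cluster was named for stem cells, intermediate progenitors or mature granule neurons.

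Transcripts of the mitosis members were concentrated in neuroblast-like and oligodendrocyte precursor-like cells, and the order of these classes rested on single cells. Levels are UMIs per 10,000 of a class. The 21 members that act in G2 and mitosis summed to 7.02 in young neuroblast-like cells (6.23 to 7.88, 286 UMIs), 3.13 in oligodendrocyte precursor-like cells (2.57 to 3.77, 110 UMIs) and 0.854 in microglia-like cells (0.752 to 0.966, 253 UMIs). They summed to 0.454 in pericyte-like, 0.240 in endothelial-like, 0.153 in mature oligodendrocyte-like and 0.138 in astrocyte-like cells, each on 12 UMIs or fewer. The intervals of the first 3 classes did not overlap. In microglia-like cells Cks2 alone made up 0.709 of the 0.854, so their place rested mainly on 1 gene. The neuroblast-like value was 3.01 without the cells called doublets, 2.30 among barcodes that were brain cells in both libraries and 2.27 in the old rows, where oligodendrocyte precursor-like cells were at 3.63. Young cells called doublets numbered 1 in the neuroblast-like and 6 in the oligodendrocyte precursor-like class. The level of the latter class was not recomputed without them. The 10 replication members (Mcm2 to Mcm7, Pcna, Tyms, Rrm1 and Rrm2) were spread more evenly: 5.03 in neuroblast-like cells (4.37 to 5.77), between 1.31 and 1.51 in oligodendrocyte precursor-, microglia-, pericyte- and endothelial-like cells, 1.07 in mature oligodendrocyte-like and 0.782 in astrocyte-like cells.

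In the young rows, neuroblast-like cells held the highest level of 31 of the 36 members, where 19.1% of the 13512 genes with at least 10 UMIs in young brain cells were highest there. Oligodendrocyte precursor-like cells were highest for Cdk1, Ccnb1, Cenpf and Ube2c (4 members, background 18.7%), and microglia-like cells for Mcm3 (background 12.1%). Mature oligodendrocyte-, astrocyte-, endothelial- and pericyte-like cells were highest for 0 members (background 8.6%, 16.1%, 11.5% and 13.6%). These orders often rest on few UMIs: Cdk1 had 9 in all young brain cells, and Pcna was at 0.736 in both neuroblast-like and microglia-like cells. The count in neuroblast-like cells was 22 without the cells called doublets, 20 among the barcodes that were brain cells in both libraries, 19 in the old rows and 13 without the 8 cells that had 3 or more mitosis members. The map of member levels by class shows this as 1 bright column, with the chromatin genes and Stmn1 as rows that carry signal across classes.

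**Figure D1:**
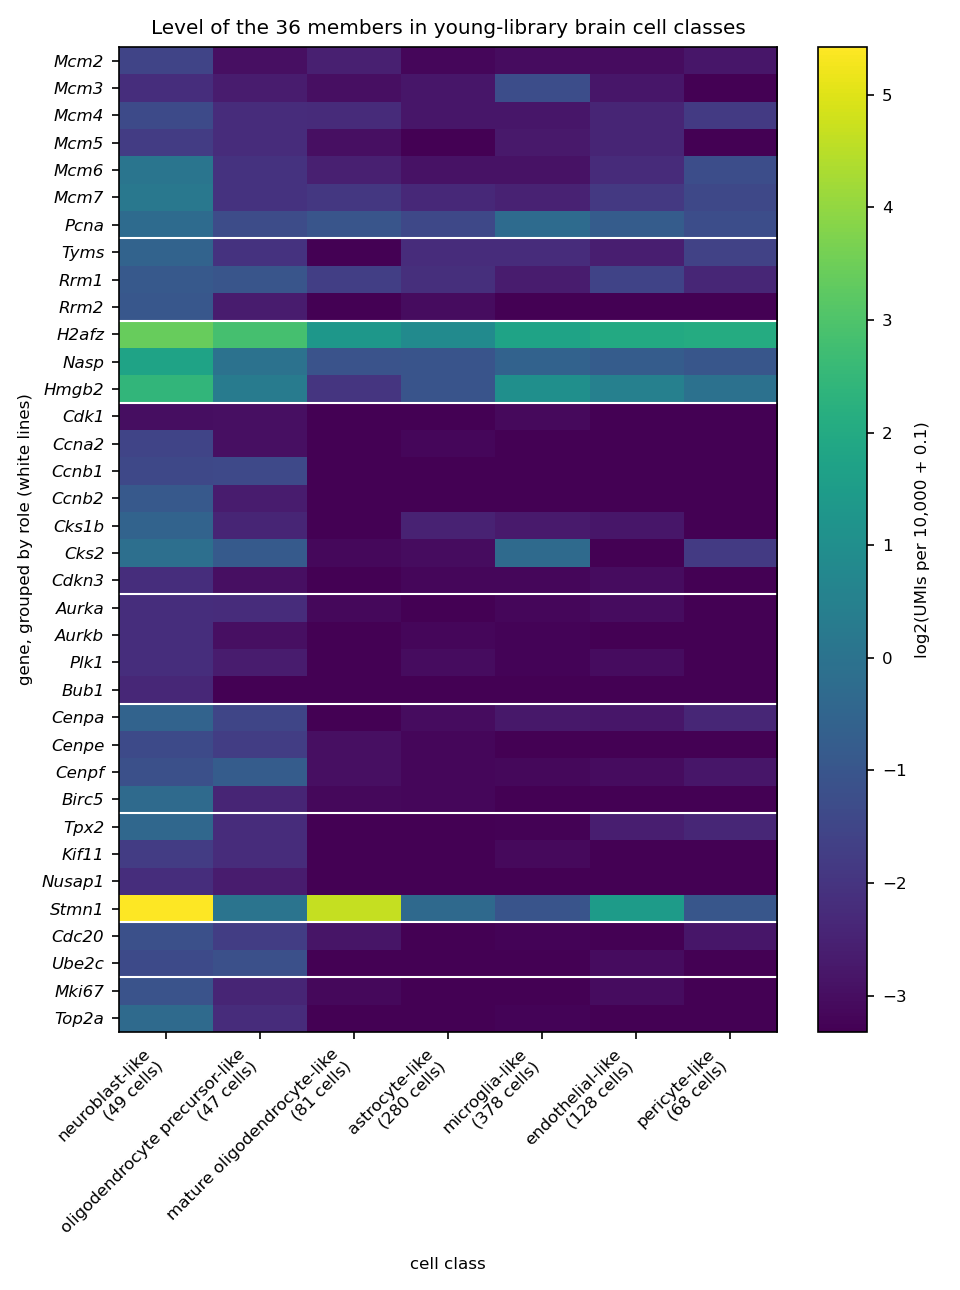
Level of each member (rows, grouped by role) in the 7 young classes of at least 20 cells (columns), as log2 of UMIs per 10,000 plus 0.1 by colour. Neuroblast-like cells hold the highest value in 31 of 36 rows, Mcm3 and Cks2 stand out in microglia-like cells, and Stmn1 is also high in mature oligodendrocyte-like cells.

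The ratios that follow set neuroblast-like cells against all other young brain cells as log2 of the level plus 0.1, which understates low genes. Of the 36 members, 32 passed the minimum of 10 UMIs, and 27 of these were at least 2-fold higher (background 12%) and 0 were 2-fold lower (background 16.4%). The median over the 32 was 1.74, and 1.67 over all 36 without the minimum, beside -0.01 over all genes. It was 1.30 without the cells called doublets, 1.02 in the old rows and 1.17 with cells thinned to 1000 UMIs. A gene seen mainly in neuroblast-like cells passes the minimum only through them, so this count is a description.

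Among the helicase and clamp genes, 5 of 7 were at least 2-fold higher, with a median log2 ratio of 1.24. Mcm6 and Mcm7, helicase subunits, were the clearest: Mcm6 was at 0.957 in young neuroblast-like cells (39 UMIs) and 0.518 in the old rows, a log2 ratio of 2.61 in the young rows, and Mcm7 was at 1.03 and 0.839, a ratio of 2.39. Mcm2, Mcm4 and Mcm5 were at 0.245, 0.294 and 0.196, with log2 ratios of 1.35, 1.24 and 1.06. Pcna (chromosome 2, 132249162 to 132253314), the sliding clamp, was at 0.736 in young neuroblast-like cells, 0.740 in the old rows, 0.313 in oligodendrocyte precursor-like, 0.391 in mature oligodendrocyte-like and 0.276 in astrocyte-like cells. Its ratio of counts against other brain cells was 1.36 (0.901 to 1.98), an interval that holds 1. Mcm3 was the only kept member below 0, at -0.36, with 5 UMIs in 4 neuroblast-like cells and a ratio of 0.662 (0.211 to 1.59). Of the Mcm7 3' end, 41.6% of 31-base words also occur in the predicted gene Gm5487, and 24.6% of the Pcna 3' end in Pcna-ps2, so some of their UMIs could belong to those copies. The same limit holds for members of other roles. Words shared with any other gene made up 36.6% for Ccnb1, 27.5% each for Cdc20 and H2afz and 27.0% for Cks1b. They made up 26.2% for Stmn1 and 23.6% for Hmgb2.

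All 3 nucleotide genes were at least 2-fold higher, but they were not alike in how many cells carried them. Rrm1, the large subunit of ribonucleotide reductase, was at 0.442 in 13 of 49 young neuroblast-like cells, 0.321 in the old rows, and 0.398 in oligodendrocyte precursor-like cells (log2 ratio 1.28). Rrm2, the small subunit made in S phase, was at 0.417, with all of its 17 UMIs in 3 cells, and at 0 in mature oligodendrocyte-, microglia-, endothelial- and pericyte-like cells (log2 ratio 2.28). Tyms, thymidylate synthase, was at 0.589 in 12 cells (log2 ratio 1.77).

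All 3 histone and chromatin genes were at least 2-fold higher in neuroblast-like cells. H2afz, the histone variant H2A.Z, was at 10.4 in young neuroblast-like cells (44 of 49 cells), 7.28 in the old rows, 7.11 in oligodendrocyte precursor-like cells, 3.26 in microglia-like cells and 1.70 in astrocyte-like cells (log2 ratio 1.59). Nasp, a histone chaperone, was at 3.24 and in the old rows 2.37, and 0.882 or less in each other class of at least 20 cells (log2 ratio 2.45). Hmgb2, a chromatin protein of proliferating cells, was at 5.35 and in the old rows 2.96, with 1.95 in microglia-like cells (log2 ratio 1.94). All 3 had UMIs in each of the 7 classes, as did Pcna and Stmn1 among others.

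Of the cyclins, Cdk1 and their partners, 5 of 6 kept members were at least 2-fold higher (median 1.69). Ccnb2, cyclin B2, was at 0.442 in young neuroblast-like cells (18 UMIs in 4 cells) and 0.0986 in the old rows (4 UMIs in 1 cell), with a log2 ratio of 2.39. Ccna2 and Ccnb1, cyclins A2 and B1, had 10 and 11 UMIs (ratios 1.74 and 1.64), Cks1b 24 UMIs in 14 cells (2.14), and Cdkn3, a phosphatase of cyclin-dependent kinases, 5 UMIs in 1 cell (1.02). Cks2, a small kinase subunit and the member of this role with the most UMIs, was at 0.810 in young neuroblast-like cells, 0.197 in the old rows and 0.709 in microglia-like cells. Its count ratio in neuroblast-like cells was 2.01 (1.35 to 2.89), a log2 ratio of 0.85 that missed the 2-fold line on the scale with the added 0.1. Cdk1, with 1 UMI in neuroblast-like cells, did not pass the minimum. In this class 1 cell, called a doublet, held 12 of 18 Ccnb2, 8 of 10 Ccna2, 8 of 11 Ccnb1 and 6 of 24 Cks1b UMIs. It also held 25 of 33 Cks2 UMIs and all 5 of Cdkn3.

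The mitotic kinases were the thinnest role. Aurka, the Aurora kinase of the spindle poles, had 5 UMIs in 3 young neuroblast-like cells (0.123) and 2 in the old rows (log2 ratio 0.95, 8.17-fold, 2.15 to 27.1), and Plk1, the Polo-like kinase, had 5 UMIs in 1 cell (1.00, just under the 2-fold line before rounding). The cell with Plk1 was the neuroblast-like cell called a doublet, which held 0 UMIs of Aurka. Aurkb and Bub1 had 9 and 4 UMIs in all young brain cells, which did not reach the minimum. No kinase had more than 5 UMIs in any class of at least 20 young cells, so these levels are among the least precise of the set.

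Centromere and passenger genes were all at least 2-fold higher, 4 of 4 (median 1.93). The neuroblast-like cell called a doublet held 18 of the class's 24 Cenpa, 17 of 29 Birc5, 10 of 12 Cenpe and 6 of 14 Cenpf UMIs. Cenpa, the centromeric histone and the member of this role with the most UMIs, was at 0.589 in young neuroblast-like cells (24 UMIs in 3 cells), 0.173 in the old rows and 0.256 in oligodendrocyte precursor-like cells, where all 9 UMIs lay in 1 cell (log2 ratio 2.12). Birc5, survivin, was at 0.712 (29 UMIs against 5 in all other brain cells) and 0.222 in the old rows, with a log2 ratio of 2.91, the second highest of the set. Cenpe and Cenpf, kinetochore proteins, had ratios of 1.74 and 1.63, and Cenpf was higher in oligodendrocyte precursor-like cells (0.484, 17 UMIs in 1 cell) than in neuroblast-like cells (0.344, 14 UMIs in 5 cells).

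Of the spindle and microtubule genes, Stmn1 (chromosome 4, 134468320 to 134473843), which codes for the microtubule-destabilising protein stathmin, had the highest log2 ratio of all members, 3.49. It was at 42.9 in young neuroblast-like cells (1747 UMIs in 48 of 49 cells) and 41.3 in the old rows, with an 11.5-fold count ratio (10.8 to 12.3). It was also at 24.9 in mature oligodendrocyte-like cells (78 of 81 cells), 16.7 in the 9 Cajal-Retzius-like cells, 2.69 in endothelial-like and 0.939 in oligodendrocyte precursor-like cells. Mature oligodendrocyte-like cells had 11 UMIs of the 21 mitosis members in all, so the level of Stmn1 across classes did not follow those genes. Tpx2 and Kif11, spindle assembly proteins, had ratios of 2.69 and 1.37, and Nusap1 had 7 UMIs in all young brain cells and did not pass the minimum. The neuroblast-like cell called a doublet held 17 of the class's 27 Tpx2 and 5 of its 8 Kif11 UMIs, and 62 of 1747 of Stmn1.

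The anaphase-promoting complex members Cdc20, its activator, and Ube2c, its ubiquitin-conjugating enzyme, had ratios of 1.83 and 1.70. Cdc20 was at 0.344 in young neuroblast-like cells, 0.0986 in the old rows and 0.199 in oligodendrocyte precursor-like cells. Top2a (chromosome 11, 98992943 to 99024189), the topoisomerase that untangles sister chromatids, had 29 UMIs in 3 neuroblast-like cells (0.712) against 6 UMIs in all other young brain cells, a log2 ratio of 2.88 and a 71.1-fold count ratio (29.0 to 209). It was at 0.345 in the old rows (14 UMIs in 2 cells) and at 0 in mature oligodendrocyte-, astrocyte-, endothelial- and pericyte-like cells. Mki67 (chromosome 7, 135689784 to 135716361), the Ki-67 protein that coats mitotic chromosomes, had 15 UMIs in 7 neuroblast-like cells (0.368) and 5 in all others (log2 ratio 2.11), and 15 UMIs in 8 cells (0.370) in the old rows. The neuroblast-like cell called a doublet held 11 of the class's 14 Cdc20 and 8 of its 12 Ube2c UMIs. It held 3 of 29 of Top2a and 5 of 15 of Mki67.

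**Figure D2:**
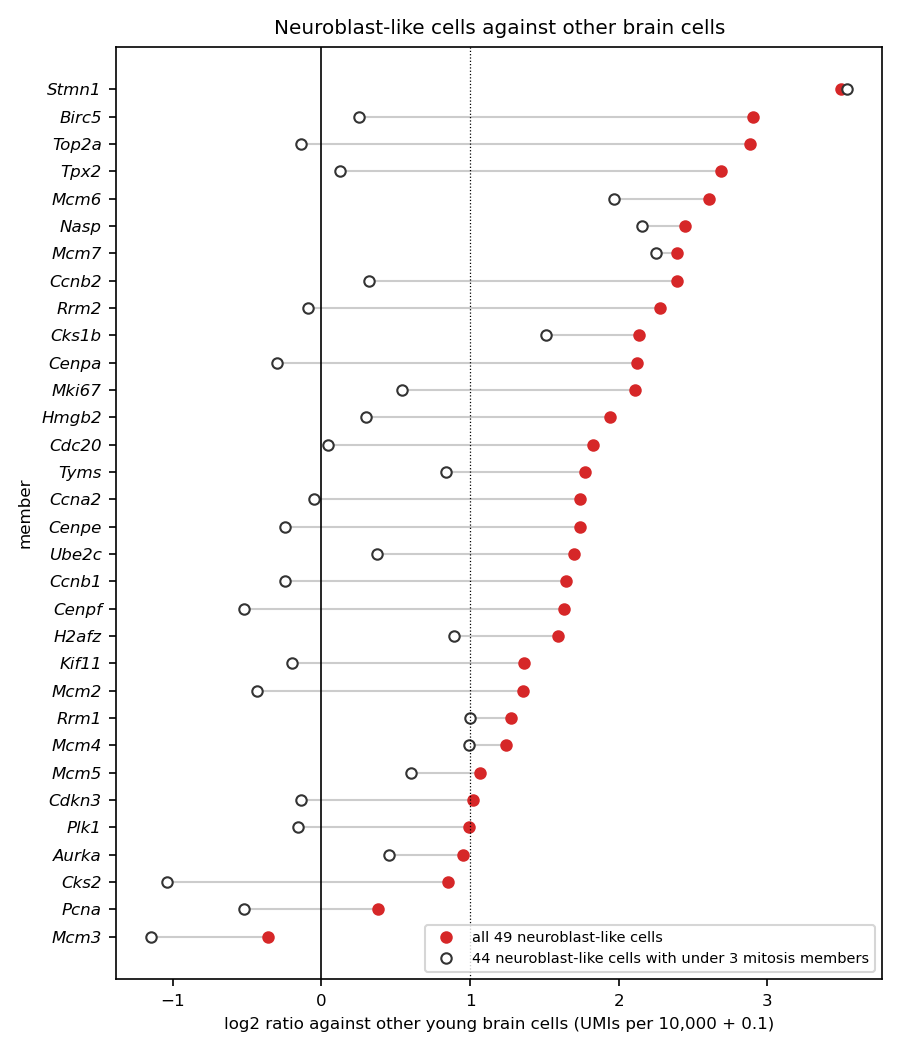
Log2 ratio of neuroblast-like against other young brain cells (UMIs per 10,000 plus 0.1) for the 32 kept members, with all 49 neuroblast-like cells (filled) and with the 44 that had under 3 mitosis members (open). The dotted line is 2-fold. With the 44 cells, Stmn1, Mcm7, Nasp, Mcm6 and Cks1b lie above it, and Cks2 and Mcm3 lie more than 2-fold below 0.

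A few cells carried most of these transcripts. Among the 1120 young brain cells, 886 had no UMI of any of the 21 mitosis members, 205 had 1 member, 21 had 2, 3 had 3, 0 had 4 and 5 had 5 or more. The 8 cells with at least 3 (0.714%, 0.309 to 1.40) were 5 of 49 neuroblast-like cells (10.2%, 3.40 to 22.2), 2 of 47 oligodendrocyte precursor-like cells (4.26%, 0.520 to 14.5) and 1 of 378 microglia-like cells (0.265%, 0.00670 to 1.47). None was found among 280 astrocyte-like cells, whose median depth was 2051 UMIs. Taking 3 cells of the total as the limit that a count of 0 allows, this permits a share of up to 1.07% (the exact 95% interval ends at 1.31%). None was found among 128 endothelial-like, 81 mature oligodendrocyte-like or 68 pericyte-like cells either, with limits of 2.34%, 3.70% and 4.41% set in the same way. The limit of 3 divides a thin range: the cells just inside had 3 members and the 21 just outside had 2. In the old rows 10 brain cells passed it, 3 of them neuroblast-like, 2 oligodendrocyte precursor-like, 2 microglia-like and 3 in an unnamed cluster, all 18 of whose old barcodes were low-mitochondrial in the young library.

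**Figure D3:**
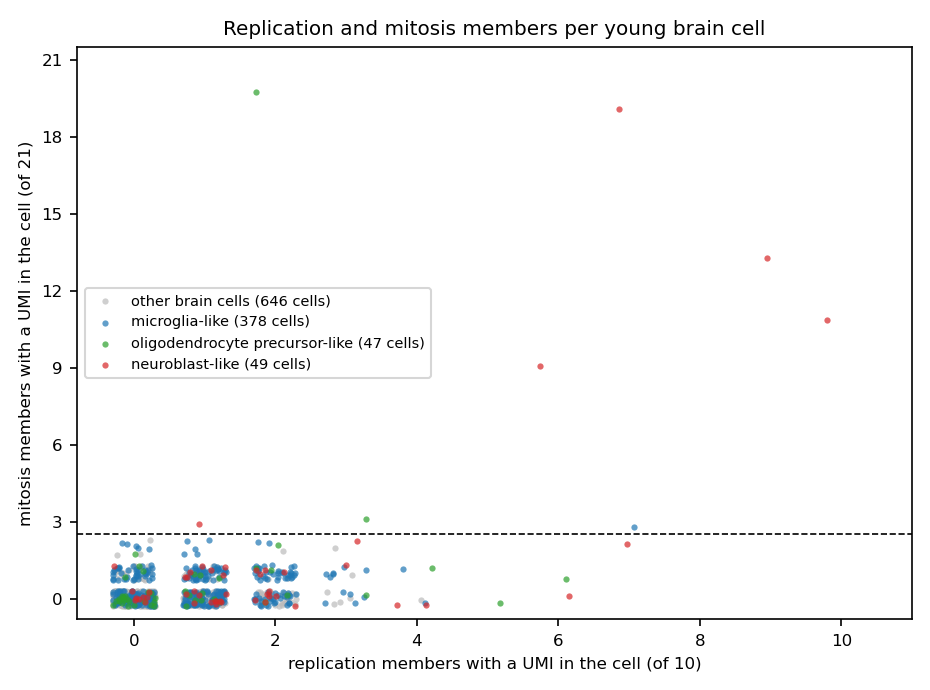
Number of mitosis members (of 21, y axis) against number of replication members (of 10, x axis) with a UMI in each young brain cell, slightly jittered, with colours for class. The dashed line separates cells with 3 or more mitosis members. Of the 8 cells above it, 5 are neuroblast-like, and the cell with 20 mitosis members, an oligodendrocyte precursor-like cell, has 2 replication members.

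The 8 cells were not alike. An oligodendrocyte precursor-like cell had 20 of 21 mitosis members (92 UMIs) with 2 of 10 replication members, and its lineage genes Pdgfra and Olig1 had 13 and 26 UMIs. A neuroblast-like cell had 19 mitosis members (168 UMIs) with 7 replication members, 14 UMIs of Hopx and 0 of Dcx. Hopx is a gene of radial glia-like stem cells and Dcx one of migrating young neurons. This cell was the only 1 of the 8 that Scrublet called a doublet, it had 16008 UMIs, and its barcode was in the young library alone.

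The other 6 cells had between 1 and 10 replication members. A neuroblast-like cell with 13 mitosis members had 9 replication members and carried Sox11 (40 UMIs), Dcx (5) and Eomes (3), a factor of intermediate progenitors. Another, also found only in the young library, had 11 mitosis and all 10 replication members with Hopx (7 UMIs), Eomes (3) and Dcx at 0. A neuroblast-like cell with 9 mitosis members had 6 replication members with Hopx (5), Eomes (2), Sox11 (23) and Dcx at 0, and its row in the old library was called a doublet. The last neuroblast-like cell had 3 and 1 members, with Neurod1 (7) and Dcx (5), and its 5 mitosis UMIs included 3 of Aurka. The microglia-like cell had 3 mitosis and 7 replication members, 8 of its UMIs from Pcna, with C1qa at 50 and Cx3cr1 at 18 UMIs. The other oligodendrocyte precursor-like cell had 3 and 3.

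These 8 cells held 369 of the 715 mitosis UMIs of all young brain cells (51.6%), and the 5 neuroblast-like ones held 268 of that class's 286 (93.7%). Since they were chosen by those members, this is a description. For replication members, which did not choose them, the shares were 107 of 205 UMIs in neuroblast-like cells (52.2%) and 130 of 979 in all brain cells (13.3%). For Stmn1 the share was 218 of 1747 (12.5%). All 29 neuroblast-like UMIs of Top2a, all 17 of Rrm2 and 13 of 15 of Mki67 lay in those cells. In the oligodendrocyte precursor-like class, 1 cell held 92 of the 110 mitosis UMIs. In the neuroblast-like class, the cell called a doublet held 168 of the 286.

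Against the other 44 neuroblast-like cells, the 8 cells were at least 2-fold higher in 9 of 10 replication members (background 16.4% of genes higher, 12.6% lower), Mcm7 at 0.42 being the exception. The 8 cells mix 3 classes and the 44 are 1, so class and division cannot be told apart in this contrast. Rrm2, with 18 of its 21 young brain UMIs in the 8 cells, passed the minimum through them. Pcna was at 3.12 against 0.347 (log2 ratio 2.85, count ratio between 4.41 and 19.5) and Mcm6 at 2.55 against 0.578 (4.40-fold, 2.29 to 8.50). Rrm2 and Mcm2 had 18 and 10 UMIs against 0, at least 24.0-fold and 13.3-fold higher when the 44 cells together are set at 3 UMIs. H2afz was at 31.2 against 6.33 (4.93-fold, 4.11 to 5.92) and Hmgb2 at 23.4 against 1.65 (14.2-fold, 10.5 to 19.4). Stmn1 went the other way, 27.0 against 44.2 (0.610-fold, 0.529 to 0.700).

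With the 5 cells left out, the share of members at least 2-fold higher in the neuroblast-like class was near that of all genes. Over the same 32 members, 5 were at least 2-fold higher than in other brain cells (background 11.8%) and 2 lower (background 17.4%), with a median of 0.19 beside -0.05 over all genes. The 5 were Stmn1 (3.54, at 44.2), Mcm7 (2.25, at 0.925), Nasp (2.16, at 2.63), Mcm6 (1.97, at 0.578) and Cks1b (1.51, at 0.347), and the 2 lower were Mcm3 (-1.15) and Cks2 (-1.04). None of the 17 kept mitosis members was 2-fold higher (median -0.14), a result that the removal by those members favours. The 10 replication members had a median of 0.72. The removal was on 1 side only. The other brain cells still held 2 oligodendrocyte precursor-like cells and 1 microglia-like cell with 3 or more mitosis members. With such cells left out on both sides and the minimum applied again, the median was 0.89 over the 16 members kept.

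Replication genes were also found in cells with few or no mitosis genes. At least 3 of the 10 replication members were present in 10 of 49 neuroblast-like cells (20.4%, 10.2 to 34.3), of which 6 had under 3 mitosis members and 3 had 0. The counts were 5 of 47 oligodendrocyte precursor-like cells (10.6%, 3.55 to 23.1), 4 of them with under 3 mitosis members and 2 with 0, and 14 of 378 microglia-like cells (3.70%, 2.04 to 6.14), 13 with under 3 and 6 with 0. They were 2 of 81 mature oligodendrocyte-like and 1 of 280 astrocyte-like cells. Depth differed between these classes, with medians of 9052, 8009, 7892, 9584 and 2051 UMIs in this order.

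With each cell thinned to 1000 UMIs, 7 of 49 neuroblast-like cells (14.3%, 5.94 to 27.2) had a UMI of a mitosis member, where 40.8% had 1 at full depth. The shares were 6.52% in oligodendrocyte precursor-like cells, 3.03% in pericyte-like, 1.64% in endothelial-like, 1.27% in mature oligodendrocyte-like and 1.22% in astrocyte-like cells (3 of 245, with 35 shallower cells left out). The last 2 classes are taken as the level in cells that rarely divide. In microglia-like cells 8.04% had a mitosis member, and 1.34% when Cks2 was not counted. A replication member was seen, after thinning, in 20.4% of neuroblast-like, 21.2% of pericyte-like, 15.3% of microglia-like and 13.9% of endothelial-like cells. It was seen in 10.1% of mature oligodendrocyte-like and 9.80% of astrocyte-like cells, and in 6.52% of oligodendrocyte precursor-like cells (3 of 46, 1.37 to 17.9), the lowest of the 7 classes.

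Microglia-like cells had UMIs of the chromatin genes, Pcna, Cks2 and Mcm3, and none of several mitosis members. The share of members at least 2-fold higher there was near that of all genes. Of the 32 kept members only Cks2 and Mcm3 were at least 2-fold higher in microglia-like than in other brain cells (background 7.58%), and 5 were 2-fold lower (background 22.2%). Cks2 had 210 UMIs in 116 of 378 cells (30.7%) and a 3.75-fold count ratio (2.83 to 5.03), and Mcm3 had 95 UMIs in 83 cells, 5.25-fold (3.25 to 8.87). Pcna followed at 1.85-fold (1.48 to 2.30). Mki67 was found in 0 of 378 microglia-like cells, which allows a share of up to 0.794%, Top2a in 2, and Ccnb1, Ccnb2, Birc5 and Ube2c in 0. Cks2 occurred with Pcna in 48 cells, with Mcm3 in 27, with Top2a in 1 and with Mki67 in 0. Mature oligodendrocyte-like cells, at a like depth, had Cks2 in 1 of 81 cells.

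The 2 microglia-like clusters differed in Cks2, at 0.418 in a cluster of 78 cells and 0.772 in a cluster of 300. The early-response gene Junb was at 47.6 and 65.3 and the chemokine gene Ccl4 at 3.18 and 13.9 in the same clusters, and the part of such genes in the Cks2 level was not tested. Of the Cks2 3' end, 42.3% of 31-base words also occur in the predicted gene Gm15452, so the count could include that copy.

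Oligodendrocyte precursor-like cells had 6 of the 32 kept members at least 2-fold higher than other brain cells (background 13.2%) and 1, Stmn1, lower (-2.67, background 10.4%). The 6 were Cenpf (2.08), Ube2c (1.86), Ccnb1 (1.68), Cenpe (1.24), Cdc20 (1.13) and Rrm1 (1.12). Ube2c, Ccnb1, Cenpf and Cdc20 each came from 1 cell in this class, the cell with 20 mitosis members, and Cenpe from 2. Rrm1 was spread over 10 of 47 cells, with a count ratio of 3.09 (1.61 to 5.50).

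In the other 4 classes the median log2 ratio of the kept members was below 0, at -0.44 for mature oligodendrocyte-like, -0.50 for astrocyte-like, -0.33 for endothelial-like and -0.38 for pericyte-like cells, beside -0.30, -0.02, -0.18 and -0.18 over all genes. In mature oligodendrocyte-like cells 1 member, Stmn1 (2.66), was at least 2-fold higher (background 7.17%) and 6 were lower (background 19.4%), with Hmgb2 at -2.87 the lowest. In astrocyte-like cells 0 were higher (background 12.6%) and 5 lower (background 12.9%), Stmn1 at -3.16 and Cks2 at -2.27 among them. In endothelial-like cells 0 were higher (background 8.38%) and 3 lower (background 15%), namely Cks2, Stmn1 and Mcm3. In pericyte-like cells 0 were higher (background 8.55%) and 2 lower (background 15.6%), namely Stmn1 and Mcm3. Mcm3 was lower in each of these 4 classes, between -1.52 and -1.02.

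The wider pathway was also described in neuroblast-like cells, where 12% of all genes were at least 2-fold higher and 16.4% lower. Of 45 other DNA replication genes, 37 passed the minimum, 20 were at least 2-fold higher and 0 lower (median 1.09), led by Dut, which keeps uracil out of DNA (2.65), the S-phase transcription factor E2f1 (2.19) and the methylation maintenance factor Uhrf1 (2.13). Of 65 other mitosis genes, 39 passed, 23 were higher and 2 lower (median 1.30), led by Racgap1 of the central spindle (3.00), Cdca8 of the passenger complex (2.53) and the kinase gene Pbk (2.45). The 2 lower were Pttg1 (-1.08) and Anln (-1.07), which are named because they were the exceptions. Over all genes of each list without the minimum, the medians were 0.94 and 0.87.

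Of 11 genes that hold cells in G1, 2 were higher and 4 lower in neuroblast-like cells (background 12% and 16.4%). Cdkn2c and Cdkn1b, inhibitors of cyclin-dependent kinases, were at 2.95 and 1.80, and Cdkn2d at 0.55. Cdkn1a, Btg2, Cdkn1c and Btg1 were at -3.52, -2.65, -1.65 and -1.30. Without the 5 cells, removed on 1 side only, 5 of 37 replication and 3 of 39 mitosis genes were 2-fold higher (background 11.8%). These shares were near or below that of all genes, and the counts of G1 genes were 2 and 4 again. In the 8 cells against the other 44 neuroblast-like cells (background 16.4% higher and 12.6% lower), 32 of 37 replication genes were higher. Among them was the chromatin remodeller gene Hells with 17 UMIs against 1 (68.0-fold, 10.7 to 2843). Of 39 mitosis genes, 33 were higher and 2 lower. The 8 cells were chosen by mitosis members, and genes could pass the minimum through them, so these counts are a description.

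Genes outside all of these lists whose class levels followed the mean standardised level of the mitosis members most closely were Rnf165 (Pearson r 0.999), Serinc2 (0.998), Trim67 (0.997), Add2 (0.996) and Scrt1 (0.995), over 7 classes that share 1 library. With 7 points and 2 high classes, such values describe the order of the classes only. Rnf165 was at 2.43 in neuroblast-like and 0.484 in oligodendrocyte precursor-like cells.

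The low-mitochondrial cells carried a different selection of the same genes. The 21 mitosis members summed to 12.4 UMIs per 10,000 in the young low-mitochondrial cells (12222 UMIs), above every brain class of at least 20 cells, while the replication members summed to 2.93. Against brain cells 17 of 36 members were at least 2-fold higher (background 8.08%) and 1 was lower (background 36.9%), with a median of 0.85 beside -0.63 over all genes, which is 1.48 relative to that median. Top2a was at 1.85 against 0.0547 (33.8-fold, 24.2 to 48.7), Ube2c at 1.22 against 0.0391 (log2 ratio 3.24) and Ccnb1 at 1.15 against 0.0344 (33.3-fold, 21.9 to 53.4). Cks2 was at 4.41, Nasp at 6.03 and H2afz at 29.7, with log2 ratios of 3.09, 2.96 and 2.93.

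Several other members were near 0 in these cells. Pcna was at 0.0407 against 0.555 in brain cells, a log2 ratio of -2.22 (40 against 355 UMIs), and Cenpa had 1 UMI in 1343 cells. Mki67 was at 0.0143 and Aurka at 0.00611, with log2 ratios of -0.20 each. Both were also low in young brain cells, with 20 and 14 UMIs in all. Of the 10 replication members, 3 were at least 2-fold higher, Mcm7, Rrm1 and Mcm3, and Mcm2, Mcm5 and Mcm6 were between -0.36 and -0.31. Of 57 kept mitosis genes outside the members 10 were higher and 3 lower, of 44 replication genes 5 and 4, and of 11 G1 genes 0 and 5.

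Of the 1343 low-mitochondrial cells, 340 (25.3%) had at least 3 mitosis members, and their make-up differed from that of the 8 brain cells. Top2a was found in 65.9% of the 340 and in 5 of 8 brain cells, and Cks2 in 94.4% and 6 of 8. Mki67 was found in 3.82% (2.05 to 6.45) against 6 of 8, Pcna in 5.88% (3.63 to 8.94) against 5 of 8 (62.5%, 24.5 to 91.5), Mcm2 in 3.82% and Mcm5 in 4.12% against 5 of 8 each. Cenpa was found in 0 of 340 cells, which allows a share of up to 0.882%, against 3 of 8. Depth was close, with medians of 9218 and 10394 UMIs, while the median numbers of genes were 2017 and 3812 and the mitochondrial shares 0.0835% and 8.58%.

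Markers of most brain classes were lower in the low-mitochondrial cells than in brain cells, and those of 6 of 24 lists were higher. The 12 microglia markers summed to 2.26 UMIs per 10,000 against 180.4 in brain cells, the 11 mature oligodendrocyte markers to 0.495 against 70.6, and the 11 endothelial markers to 0.281 against 23.0. The 12 neuroblast markers summed to 49.4 against 12.1, with 5 of 12 in at least 25% of the low-mitochondrial cells and 1 at 0. The 9 markers of radial glia-like stem cells summed to 1.07 against 3.01 and the 7 of intermediate progenitors to 0.698 against 0.492, with no marker of either list in 25% of cells. The other lists above their level in brain cells were those of neutrophils (3.00 against 0.00156), GABA neurons (4.18 against 1.57), fibroblasts (2.07 against 1.40) and mature granule neurons (0.468 against 0.261). The 5 neutrophil markers in the table were all at 0 in the low-mitochondrial cells with 3 or more mitosis members, where the GABA neuron markers summed to 1.04. The part of these markers in the member levels was not tested. What these cells are is not given by the labels, and the part of their low mitochondrial share in the member levels was not tested.

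**Figure D4:**
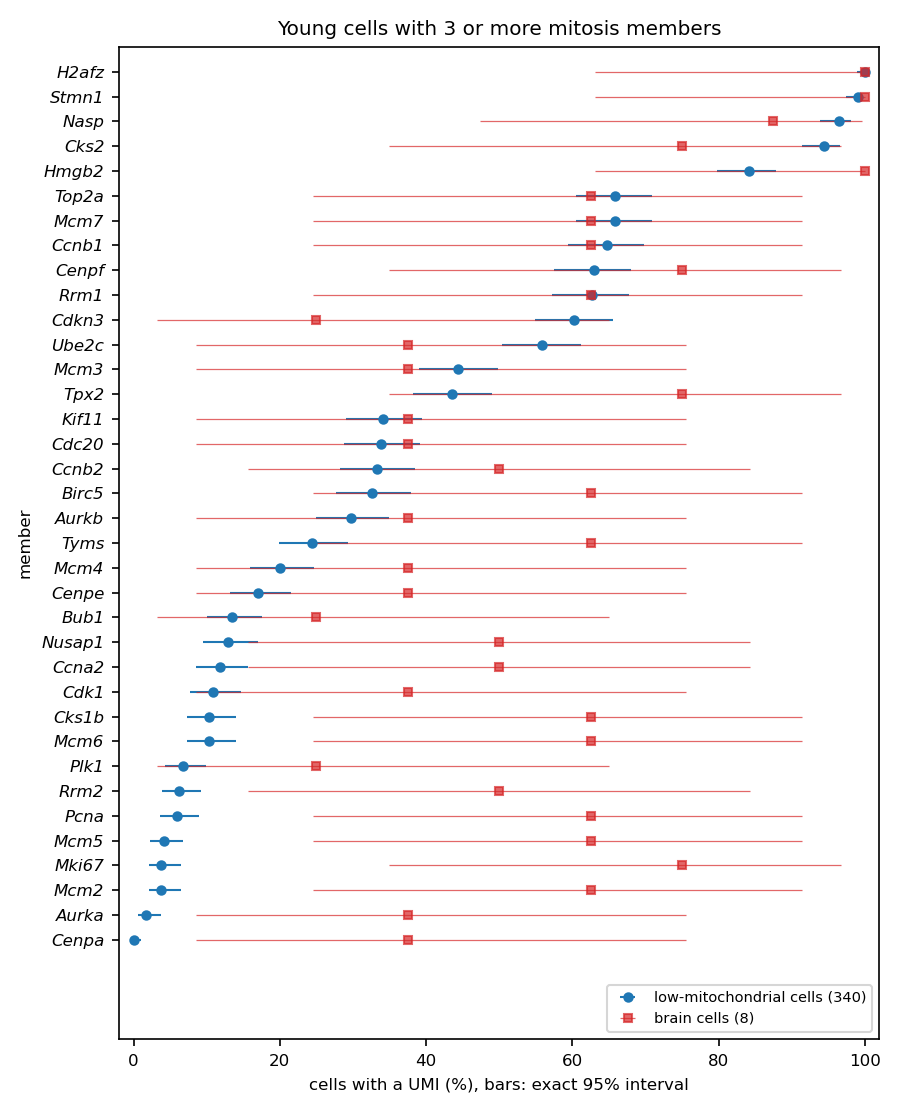
Percent of cells with a UMI of each member among young cells with at least 3 mitosis members, for 340 low-mitochondrial cells (circles) and 8 brain cells (squares), with exact 95% intervals. Both sets carry Top2a, Ccnb1, Cenpf and Cks2 often, while Mki67, Pcna, Mcm2, Mcm5 and Cenpa are each at most 5.88% in the low-mitochondrial cells and between 37.5% and 75% in the brain cells.

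The old rows give the same brain cells a second reading. Over the 1082 barcodes that were brain cells in both libraries, 99.8% of which had the same class in both, 0 of 33 kept members were 2-fold apart (background 0.0546% higher in the old rows and 0.00682% lower), with a median log2 ratio of -0.002. On the scale with 0.1 added, Pcna was the member farthest from 0, with 556 old and 333 young UMIs (1.50-fold, 1.30 to 1.72), a log2 ratio of 0.50. Mki67 had 29 and 14 UMIs (1.86-fold, 0.950 to 3.80). Stmn1 had 4150 and 3759 UMIs and H2afz 2428 and 2205, with log2 ratios of -0.02 each. Among the 46 barcodes that were neuroblast-like in both, 0 of 20 kept members were 2-fold apart (background 0.418% and 0.0246%). The summed mitosis level of the neuroblast-like class was 2.27 in the old and 7.02 in the young rows, and 2.30 in the young rows when only shared barcodes were kept. Since the cells were shared, these values say nothing about age.

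**Figure D5:**
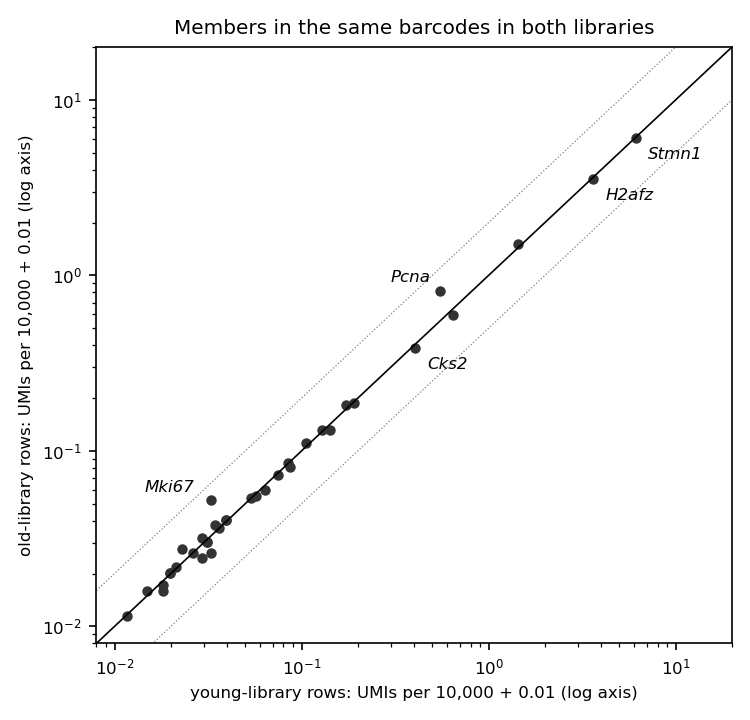
Level of each of the 36 members, kept or not, in the old rows (y axis) against the young rows (x axis) of the 1082 shared brain barcodes. Both are UMIs per 10,000 plus 0.01 on log axes. The solid line is equality and the dotted lines are 2-fold. Pcna (1.50-fold by counts) and Mki67 (1.86-fold, on 29 and 14 UMIs) lie above equality, and all kept members lie between the dotted lines.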

How the data were processed

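Single cells of the dentate gyrus of 3-month and 16-month mice were profiled in 1 library each. Cell Ranger 5.0.0 and mm10 are named per the submitters' processing notes, while for annotation, cell filter and number of animals nothing is given in the sources used here. The deposited values are natural log values, ln(1 + x) with x in UMIs per 10,000 for that cell. This was read from the values, which add up to 10000 in each cell after the exponential. Divided by what 1 UMI is worth in its cell, 100% of values were whole within 0.01, and these recovered UMIs were summed per class and library.

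Scanpy 1.11.5 (Python 3.11.15, igraph 0.11.9, numpy 2.4.6, scipy 1.17.1, pandas 2.3.3) was used on all brain cells of both libraries, with 2000 variable genes that left out the members and their pathway genes, 30 components, 15 neighbours and Leiden clustering at resolution 1. Figures were drawn with matplotlib 3.10.9. A marker had to be detected in 25% of a cluster's cells at 4 times or more the median level of the other clusters, and 3 markers were needed. The median was chosen after seeing that a pooled reference left a split microglia cluster unnamed. Cells called doublets by Scrublet were left in and were removed in an alternative.

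Log2 ratios used a pseudocount of 0.1 and genes with at least 10 UMIs, and called means past 2-fold. Shares have Clopper-Pearson intervals, sums Poisson intervals and ratios of counts exact conditional intervals. No test was run. The ratio and interval code was tested on simulated data. Positions are from GENCODE M21 on GRCm38, which is mm10, and 3' ends were the last 500 bases of transcripts. The members and lists were chosen with earlier results of these data known. Named in full were, in each role, the member with the most UMIs, the 3 highest and 3 lowest ratios, 3 genes per pathway list, and 5 genes most alike across classes. Alternatives changed the library rows, variable genes, clustering resolution, mitochondrial limit, doublets, minimum, pseudocount, depth and member limit. Leaving out cells with 3 or more mitosis members, leaving out Cks2, keeping only shared barcodes and centring on the median of all genes were added after the data were seen.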

Additional observations from a re-analysis of the deposited data

How the results depend on the processing

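Of 58 recomputed values 35 stayed within the interval or limit of the reported value, 23 moved and 0 reversed. The summed mitosis level in neuroblast-like cells (7.02) was 2.27 in the old rows, 3.01 without cells called doublets, 0.520 without cells of 3 or more mitosis members and 2.30 among barcodes in both libraries. The members highest there (31) numbered 19 in the old rows, 13 without those cells and 20 among shared barcodes. The median log2 ratio (1.74) was 1.02 in the old rows, 1.64 at Leiden resolution 0.5, 1.30 without doublets and 1.67 with no minimum. It was 0.38 with a pseudocount of 1 and 1.17 at 1000 UMIs, where the median over all genes was -0.26. It was 0.89 without the cells of 3 or more mitosis members (16 members kept) and 1.03 among shared barcodes. The cells with at least 3 mitosis members (8) numbered 29 at a limit of 2 members, 5 at a limit of 5 and 3 when thinned to 1000 UMIs. The thinned share of 14.3% was 40.8% when not thinned. The low-mitochondrial median (0.85) was 1.54 in the old rows, 0.21 with a pseudocount of 1, 0.95 without doublets and 1.48 when centred on all genes. The cause of these shifts was not tested.

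No paired analysis was possible because each age has 1 library and the libraries share cells. Depth limits Bub1, Nusap1, Cdk1 and Aurkb most, with 4, 7, 9 and 9 UMIs in all young brain cells, and finding 0 of 49 cells would still allow a share of 6.12%.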
